A study of Homo sapiens with 7 samples.

Results

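The genes FCGR1A, FCGR2A, FCGR3A, FCER1G, TYROBP, TREM1, SYK and CD86, which encode Fc gamma receptors, the signalling chains and kinase that act with them and a co-stimulatory ligand of the same cells, were followed in RNA-seq of MOLM13, a cell line from a human acute myeloid leukemia, across 7 libraries. They were chosen by symbol, with earlier results of these data known, and 8 of 8 were found among the 11408 genes with a deposited value. The 3 control libraries came from cells given sgRosa, a guide RNA that the labels call non-targeting. The other 4 libraries are labelled with guides against ZFP36L2, an RNA-binding protein that promotes decay of mRNAs with AU-rich 3′ UTRs. There were 2 guides with 2 libraries each, called guide 3 and guide 5 after the deposited columns, and RNA was taken 6 days after transduction. Whether the replicates were grown as separate cultures, and whether transduced cells were selected or cloned, is not in the labels. P-values below therefore rest on the spread among these libraries, which may be technical.

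Fc gamma receptors bind the constant part of IgG. The high-affinity receptor FCGR1A and the receptor FCGR3A have no signalling tail and are carried by a chain such as FCER1G, whose tail holds an immunoreceptor tyrosine-based activation motif (ITAM), whereas FCGR2A has an ITAM-like tail of its own. TYROBP, also known as DAP12, is the ITAM chain of TREM1 and of other myeloid receptors. When a receptor is engaged, Src family kinases phosphorylate the ITAM tyrosines and the kinase SYK docks there. In monocytes and macrophages this leads to phagocytosis, oxidative burst and cytokine release, and receptors with an inhibitory motif (ITIM), such as FCGR2B, recruit phosphatases that oppose it.

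Recovered reads in the listed genes ranged from 16907955 to 38807816 per library, so that 1 read was worth 0.0261 to 0.0540 CPM (reads scaled to a common library size, as deposited). The intervals given below are from limma and rest on the spread among libraries. The ZFP36L2 mRNA was at 337, 334 and 311 CPM in the controls, at 1132 and 1353 CPM with guide 3 and at 734 and 690 CPM with guide 5. It was thus higher, not lower, in the libraries labelled with ZFP36L2 guides (log2 change 1.52 ± 0.15 SE, limma adjusted p = 1.3e-05), and a count over the whole gene does not measure whether the guides cut. Every direction below therefore refers to libraries as they are labelled. Of 10 markers of myeloid leukemia cells, 10 were listed, and their summed level was 1394 to 1597 CPM in controls and 1487 to 1859 CPM in guide libraries. Of the markers of other cells, 0 of 5 B cell, 0 of 5 mast cell and 0 of 6 erythroid and platelet genes were listed. Of 9 T and NK cell markers, CD3D, NKG7 and NCAM1 were listed, with a summed level of 160 to 231 CPM in controls and 235 to 260 CPM in guide libraries. They went different ways within that sum. NKG7 was at 19.4 to 38.5 CPM in controls and 71.7 to 96.4 CPM in guide libraries, and CD3D at 13.6 to 18.5 and 5.70 to 7.98 CPM. NCAM1 overlapped, at 112 to 193 and 135 to 161 CPM. CLEC10A, the only one of 6 dendritic cell markers listed, was at 0.45 to 0.65 CPM in controls and at 7.64 to 12 CPM in guide libraries, and PDGFRB, the only one of 6 stromal, endothelial and epithelial markers, was at 0.20 to 0.70 and 0.99 to 2.01 CPM. The part that other cells might have in the results was not tested. In bulk RNA, more cells that express a gene and more RNA per cell cannot be told apart.

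The promoters of 4 of these genes are shown because each holds the letters GAGGAA, the core bound by the myeloid factor PU.1, or their reverse complement TTCCTC, and because FCGR1A and FCGR2A share a stretch there. Each runs from 250 bases before to 50 bases after the annotated start, 5′ to 3′ on the gene's strand, as given by RefSeq on GRCh38.p14. Capitals mark GAGGAA and matches to TTCNNNGAA, the looser of 2 letter patterns bound by STAT factors.
FCGR1A, chr1:149782444-149782743, plus strand: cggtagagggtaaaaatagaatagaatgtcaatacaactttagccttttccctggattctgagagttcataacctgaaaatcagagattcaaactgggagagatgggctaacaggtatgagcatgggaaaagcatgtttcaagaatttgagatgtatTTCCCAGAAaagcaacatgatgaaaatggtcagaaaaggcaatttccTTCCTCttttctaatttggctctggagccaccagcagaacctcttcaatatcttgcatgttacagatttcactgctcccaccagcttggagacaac
FCGR2A, chr1:161505207-161505506, plus strand: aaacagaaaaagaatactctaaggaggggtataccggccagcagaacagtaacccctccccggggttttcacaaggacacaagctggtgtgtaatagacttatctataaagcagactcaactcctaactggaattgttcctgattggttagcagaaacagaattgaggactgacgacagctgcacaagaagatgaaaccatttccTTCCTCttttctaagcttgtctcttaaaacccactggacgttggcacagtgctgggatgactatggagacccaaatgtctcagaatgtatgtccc
TYROBP, chr19:35908246-35908545, minus strand: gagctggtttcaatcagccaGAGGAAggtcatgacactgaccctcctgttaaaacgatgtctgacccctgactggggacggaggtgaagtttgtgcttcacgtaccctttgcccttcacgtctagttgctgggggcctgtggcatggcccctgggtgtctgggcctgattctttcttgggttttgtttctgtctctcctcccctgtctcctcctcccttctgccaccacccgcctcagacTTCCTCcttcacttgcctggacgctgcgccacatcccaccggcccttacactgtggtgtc
TREM1, chr6:41286633-41286932, minus strand: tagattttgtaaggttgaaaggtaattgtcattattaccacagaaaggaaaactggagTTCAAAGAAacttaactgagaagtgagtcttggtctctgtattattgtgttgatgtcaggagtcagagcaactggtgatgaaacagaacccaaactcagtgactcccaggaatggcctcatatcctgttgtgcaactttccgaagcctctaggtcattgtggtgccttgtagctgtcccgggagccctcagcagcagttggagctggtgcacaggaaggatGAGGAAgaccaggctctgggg

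With the start site as position 0, TTCCTC began at -46 in FCGR1A and at -45 in FCGR2A. It lay in each within the run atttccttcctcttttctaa, the 20 bases that these paralogs have in common. In TYROBP the core occurred at -230 as GAGGAA and at -10 as TTCCTC, and in TREM1 at 29. CD86 held 3 matches at 1 of its 2 annotated starts, SYK held matches at 2 of 3 starts, FCGR3A at 1 of 5, and the window of FCER1G held none. On both strands, 27.9% of all 35116 promoters hold GAGGAA, so a match is common. TTCNNNGAA, searched after the data had been seen, occurred in FCGR1A at -93 and in TREM1 at -192, against 7.66% of all promoters. The stricter TTCCNGGAA, which TTCNNNGAA contains, was in 0 of the windows of the 8 genes and in 1.15% of all promoters. These matches are letters in a window and were not measured as binding.

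In the 3′ UTRs, where ZFP36 family proteins bind AU-rich letters, the longer pattern TATTTAT was found in 2 of the 7 genes that could be searched. Both sites are shown in GENCODE 29 transcripts, with the pattern in capitals.
FCER1G, bases 192 to 198 after the stop codon: gtttacggaTATTTATattctagtc
CD86, bases 464 to 470 after the stop codon: ggacttatgTATTTATgaccttata

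The shorter ATTTA was found 3 times in SYK, 2 times in CD86, and 1 time each in FCGR2A, FCER1G and TREM1. It occurred 0 times in the 1001 bases of FCGR1A and 0 times in the 159 bases of TYROBP. FCGR3A was not searched, because its principal transcript in that annotation ends with the stop codon. Of 10519 genes, 70.3% hold ATTTA and 32.6% hold TATTTAT. Among the genes higher in the guide libraries 56.4% held ATTTA and 25.4% TATTTAT, with a median UTR of 783 bases. Among those lower, 86.2% and 41.5% did, with a median of 1538 bases. UTR length therefore differed along with these shares.

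Across the group, 6 of the 8 genes were higher in the guide libraries than in controls for the mean of both guides, 0 were lower and 2 did not pass (limma on log2(CPM + 0.5), adjusted p under 0.05). Of all 11408 genes, 20.9% were higher and 20.6% lower. The 8 genes were chosen with earlier results of these data known, so the difference in shares is a description and not a test. FCGR3A, TREM1, FCER1G, TYROBP, CD86 and FCGR1A rose, in that order of log2 change. The median log2 change of the 8 genes was 1.98, beside -0.05 over all genes. All 4 guide libraries lay above all 3 controls for 6 of the 8 genes, as they did for 19.8% of all genes.

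**Figure D1:**
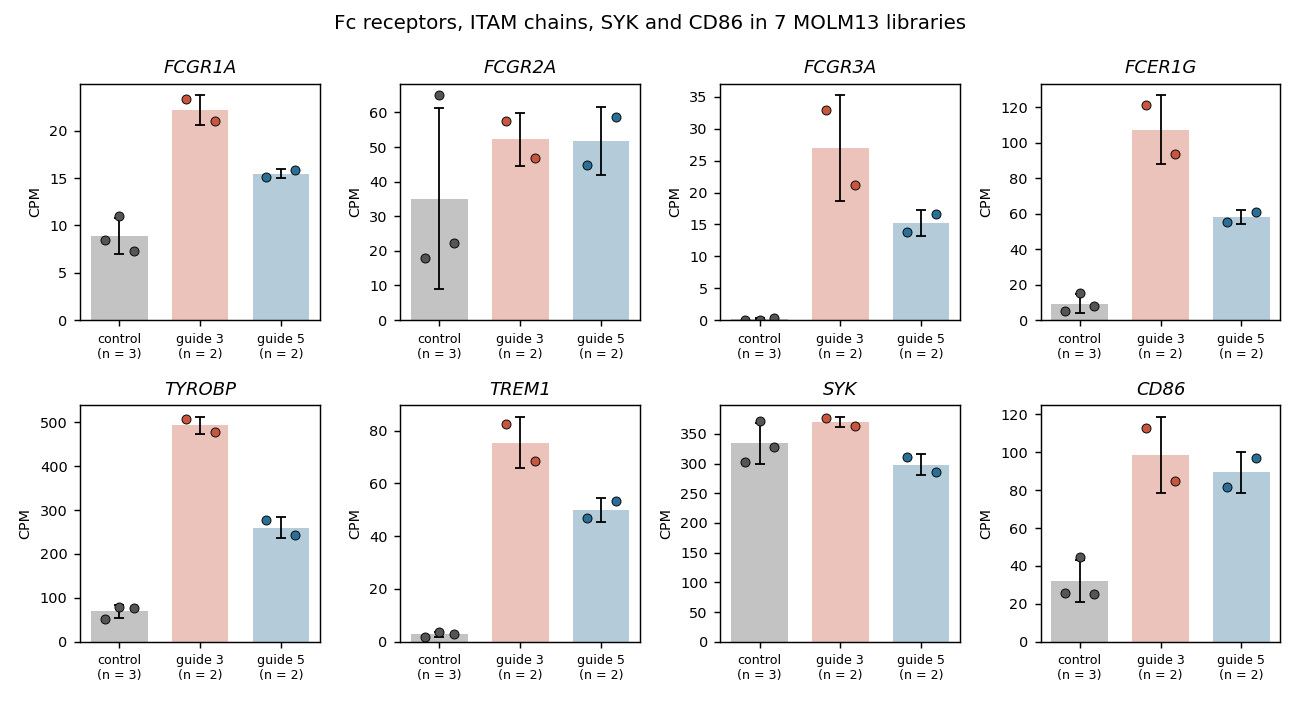
CPM of each gene (vertical axes from 0, scales differ) in the 3 control, 2 guide 3 and 2 guide 5 libraries; points are libraries, bars are group means and error bars are SD. All guide libraries lie above all controls except for FCGR2A, where control replicate 2 reaches 65.1 CPM, and SYK, where the groups overlap.

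Among the receptors, FCGR1A, also called CD64, lies at chr1:149782671-149792518 on the plus strand (coordinates from GENCODE 29 on GRCh38 throughout). It measured 8.42, 11 and 7.33 CPM in the controls, 23.3 and 21.0 CPM with guide 3, and 15.2 and 15.8 CPM with guide 5. The 3 groups did not overlap, and guide 3 was highest. Its log2 change for both guides was 1.03 ± 0.20 (adjusted p = 0.0017), with 1.29 ± 0.24 for guide 3 and 0.78 ± 0.24 for guide 5. The guide 5 call (adjusted p = 0.036) was lost when any 1 library other than control replicate 2 was left out, with adjusted p from 0.0556 to 0.247. HIST2H2BF and AC243772.2 overlap the gene on the other strand, and the strand used in counting is not stated.

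FCGR2A, or CD32A, the widely expressed low-affinity receptor, lies at chr1:161505430-161524013 on the plus strand. Control levels were 17.98, 65.1 and 22.2 CPM, those with guide 3 were 57.6 and 46.9 CPM, and those with guide 5 were 44.9 and 58.7 CPM. Control replicate 2 was the highest of all 7 libraries, while the other 2 controls lay below every guide library. The log2 change of 0.79 ± 0.34 for both guides did not pass (adjusted p = 0.082). Without control replicate 2 it was 1.35 (adjusted p = 0.00011), and over all alternatives run it ranged from 0.43 to 1.35 with adjusted p from 0.00011 to 0.357. That control was the highest of the 3 controls for 7 of the 8 genes and for 63.9% of all genes, and its deposited values sum to the most CPM of any library.

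FCGR3A, known as CD16A and typical of NK cells and of nonclassical monocytes, lies at chr1:161541759-161550737 on the minus strand. The controls held 1, 0 and 7 reads, or 0.05, 0 and 0.29 CPM. With guide 3 there were 1078 and 808 reads, or 32.9 and 21.1 CPM, and with guide 5 there were 516 and 487 reads, or 13.8 and 16.7 CPM. The gene thus went from 8 reads in all controls together to 2889 in the guide libraries. Its fitted log2 change of 5.09 ± 0.25 (adjusted p = 1.3e-08) is set in part by the value added before the logarithm, and ranged from 0.55 to 7.90 over the alternatives in which it was tested, past the threshold in each. The authors' gene model is 89368 bases long, 9.95 times the 8978 bases of GENCODE 29, and the near-identical FCGR3B was not analysed here, so reads of the pair may have been counted together. AL590385.2 overlaps FCGR3A on the other strand.

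The close relatives of these receptors were read beside them because short reads of such paralogs can be split or lost. FCGR2B, the inhibitory receptor with an ITIM, was at 1.51, 0.65 and 1.06 CPM in controls, at 48.2 and 37.6 CPM with guide 3 and at 31.3 and 35.2 CPM with guide 5. It rose by a log2 change of 4.63 ± 0.23 (adjusted p = 1.4e-08). FCGR2C, an activating copy in some people and a pseudogene in others, measured 0.05, 1.03 and 0.49 CPM in controls and 7.47 to 11.8 CPM in guide libraries (3.38 ± 0.30, adjusted p = 3.5e-06). FCGR1B, a truncated copy of FCGR1A, measured 0.59, 1.92 and 0.82 CPM in controls and 5.17 to 6.31 CPM in guide libraries (2.0 ± 0.28, adjusted p = 0.00015). For each of these 3 genes every guide library was above every control. In the authors' model FCGR2B too is longer than in GENCODE 29, at 97343 against 15507 bases, so its reads may include those of neighbours.

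**Figure D2:**
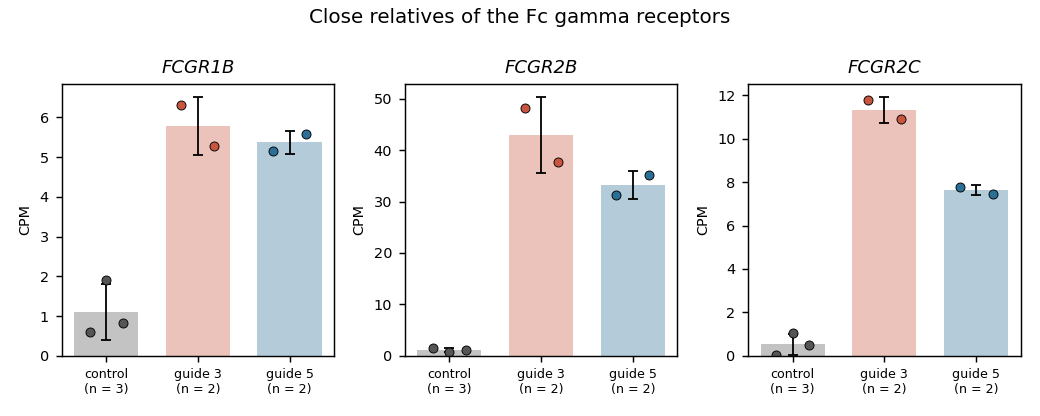
CPM (vertical axes from 0, scales differ) of the paralogs FCGR1B, FCGR2B and FCGR2C in the 7 libraries; points are libraries, bars are means and error bars are SD. Controls reach at most 1.92 CPM and the guide libraries begin at 5.17 CPM.

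Of the ITAM chains, FCER1G, the common gamma chain of FCGR1A, FCGR3A and the IgE receptor, lies at chr1:161215234-161220699 on the plus strand. It measured 5.02, 15.1 and 7.78 CPM in the controls, 121 and 93.7 CPM with guide 3, and 55.3 and 60.8 CPM with guide 5. The 3 groups were separate, and the lowest guide library was 3.67 times the highest control. The log2 change was 3.15 ± 0.29 for both guides (adjusted p = 3.9e-06), 3.59 ± 0.34 for guide 3 and 2.71 ± 0.34 for guide 5.

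TYROBP lies at chr19:35904401-35908295 on the minus strand. Its level was 51.6, 79.4 and 77.2 CPM in the controls, 507 and 479 CPM with guide 3, and 278 and 243 CPM with guide 5. The groups were again separate, with the lowest guide library at 3.06 times the highest control. The log2 change of TYROBP was 2.38 ± 0.19 for both guides (adjusted p = 8.6e-07), 2.84 ± 0.22 for guide 3 and 1.92 ± 0.22 for guide 5. Over the alternatives run, the change for both guides ranged from 1.61 to 2.49, past the threshold in each. The lowest was with the GC content and length correction and the replicate number as a block.

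TREM1, a receptor of monocytes and neutrophils that signals through TYROBP and amplifies inflammatory responses, lies at chr6:41267926-41286719 on the minus strand. Levels of 1.89, 3.79 and 2.78 CPM in the controls compared with 82.4 and 68.6 CPM with guide 3 and 46.8 and 53.2 CPM with guide 5. Its lowest guide library was 12.4 times its highest control. The log2 change was 4.26 ± 0.22 (adjusted p = 2.2e-08), with 4.55 ± 0.26 for guide 3 and 3.97 ± 0.26 for guide 5. The deposited per-length values with 0.5 added gave 2.54, still past the threshold. AL391903.1 overlaps TREM1 on the same strand, as AL590385.2 overlaps FCGR2A.

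SYK, the kinase that binds phosphorylated ITAMs, lies at chr9:90801787-90898549 on the plus strand. Its levels were 303, 371 and 328 CPM in the controls, 376 and 364 CPM with guide 3, and 311 and 286 CPM with guide 5. The control range overlapped both guides. The log2 change for both guides was -0.0032 ± 0.16 (adjusted p = 0.99), with a 95% confidence interval of -0.34 to 0.34, so changes larger than that lie outside the interval. The sign of this estimate depends on the scaling, and 0 of 20 alternatives passed. Estimates were 0.15 ± 0.19 for guide 3 and -0.16 ± 0.19 for guide 5, neither past the threshold.

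CD86, the ligand of CD28 and CTLA4 on antigen-presenting cells, lies at chr3:122055366-122121139 on the plus strand. It measured 25.9, 44.9 and 25.1 CPM in the controls, 113 and 84.6 CPM with guide 3, and 81.7 and 97 CPM with guide 5. All guide libraries were above all controls, and the guides overlapped each other. The log2 change of CD86 was 1.58 ± 0.22 for both guides (adjusted p = 0.00016), 1.65 ± 0.27 for guide 3 and 1.52 ± 0.27 for guide 5. The deposited per-length values with 0.5 added gave 0.98 for both guides, also past the threshold.

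**Figure D3:**
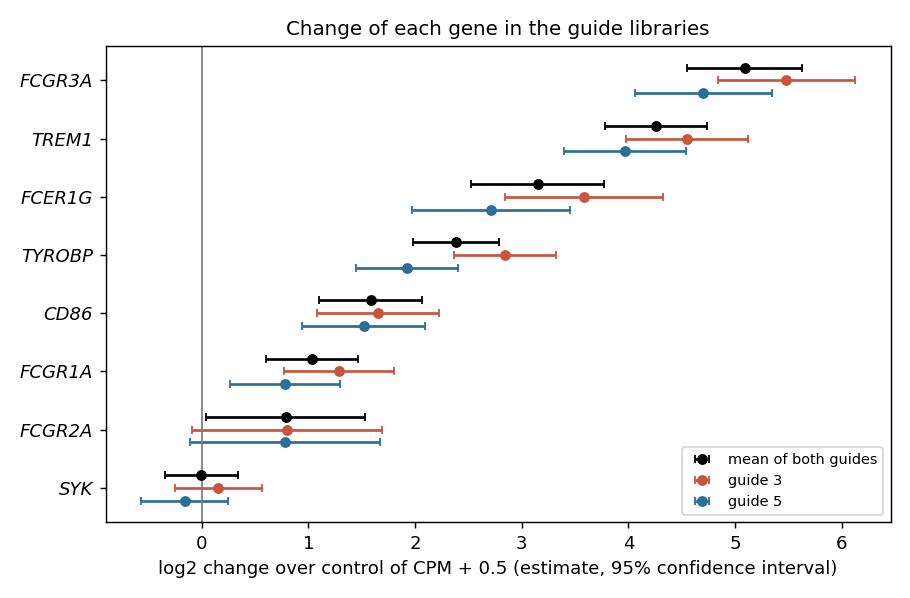
Log2 change over control of CPM + 0.5 (horizontal axis) for each gene, as the estimate and 95% confidence interval from limma, for the mean of both guides, guide 3 and guide 5. The estimates for both guides run from -0.0032 for SYK to 5.09 for FCGR3A, and the guide 5 point lies below the guide 3 point for each gene, for FCGR2A by so little that its sign depends on the scaling.

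Each guide on its own gave the same count, with 6 of 8 genes higher and 0 lower. For guide 3, 21.2% of all genes were higher, and for guide 5, 12.2%. The guides share their controls, so these counts are not independent. The authors' deposited table, from their own edgeR fit, likewise has 6 of the 8 higher with guide 3, where 20.4% of its genes are higher, and 6 with guide 5, where 11.8% are. For FCGR1A, the authors' deposited table gives a log2 fold change of 1.32 with guide 3 and 0.80 with guide 5, and for TYROBP 2.83 and 1.91. In that deposited table of the authors, FCGR2A was at 0.57 and 0.56 and SYK at 0.15 and -0.16, with false discovery rates of 0.28 or more.

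Guide 5 was compared with guide 3 directly, without the controls entering the difference. All 8 estimates of guide 5 minus guide 3 were below 0, that of FCGR2A (-0.02) being above 0 under other scalings. Their median was -0.54, beside -0.03 over all genes. With limma 0 of the 8 passed, and 0 passed with voom. Of all genes, 0.0614% were lower with guide 5 at the adjusted threshold. An unadjusted limma p under 0.05 was reached by 3 of the 8. The shares of all genes under that p, or with an estimate below 0, were not counted. TYROBP had the most negative estimate, -0.92 ± 0.24 (adjusted p = 0.18), followed by FCER1G at -0.87 ± 0.38 (adjusted p = 0.45) and FCGR3A at -0.78 ± 0.33 (adjusted p = 0.45). With the correction for GC content and length, the TYROBP difference was -0.42. Without control replicate 2, which enters only through the estimate of the spread, TYROBP (limma adjusted p = 0.026) and FCER1G (adjusted p = 0.0498) passed. In that fit the calls over all genes rose too, from 7 to 204 lower and from 40 to 233 higher with guide 5. Both guide 3 libraries lay above both guide 5 libraries for 6 of the 8 genes, which also held for 34.5% of all genes, and guide 3 replicate 1 was the highest of the 7 libraries for 7 of the 8 and for 12.1% of all genes. ZFP36L2 mRNA was itself higher with guide 3, and its part in these differences was not tested.

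To compare levels between genes, CPM was divided by the length of each gene's exons in GENCODE 29, merged over all its annotated transcripts. That length was 907 bases for TYROBP and 964 for FCER1G, but 4329 for TREM1 and 5314 for FCGR2A. A gene whose main transcript is much shorter than its merged exons is understated, so the order depends in part on this divisor. In controls TYROBP stood highest at 76.5 ± 17.0 CPM per kilobase of exon (SD, n = 3), followed by SYK at 64.1 ± 6.66, and their SD ranges overlapped. FCER1G at 9.63 ± 5.38, CD86 at 9.31 ± 3.27, FCGR2A at 6.60 ± 4.90 and FCGR1A at 2.97 ± 0.63 came next, each overlapping its neighbour within the SD. TREM1 at 0.65 ± 0.22 and FCGR3A at 0.04 ± 0.05 came last and were apart from each other. By this measure SYK and the TYROBP chain were the most abundant of the 8 mRNAs in controls, well above the receptors.

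With guide 3 the order by CPM per kilobase of exon began with TYROBP at 543 ± 22 (SD, n = 2) and FCER1G at 112 ± 20.3, and SYK followed at 71.0 ± 1.71. CD86 stood at 28.8 ± 5.84 and TREM1 at 17.4 ± 2.26. FCGR2A at 9.83 ± 1.43, FCGR3A at 9.13 ± 2.81 and FCGR1A at 7.40 ± 0.54 overlapped their neighbours. With guide 5 TYROBP was again highest at 287 ± 27.1, while FCER1G at 60.2 ± 4.05 and SYK at 57.3 ± 3.39 overlapped. CD86 was at 26 ± 3.15, TREM1 at 11.6 ± 1.04 and FCGR2A at 9.75 ± 1.84, the last pair overlapping, and FCGR1A at 5.17 ± 0.16 and FCGR3A at 5.15 ± 0.69 were level. FCGR3A entered at the bottom of the order in controls and within the SD of another Fc gamma receptor with either guide, with the doubt over its gene model that is given above.

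The other genes of the pathway were taken from 6 lists of 158 listed entries, of which 112 were in the table, some of them in more than 1 list. Of these, 73 were higher (65.2%, beside 20.9% of all genes), 10 were lower (8.93%, beside 20.6%) and 29 did not pass. Their median log2 change was 0.89 beside -0.05 over all genes. The same shares of all genes stand beside each list below. The lists were chosen with earlier results of these data known, and a gene near 0 in controls may be in the table only through its guide libraries. Values in the next paragraphs are log2 changes for both guides ± SE. On the deposited per-length values with 0.5 added and no filter, 25 of the 25 named pathway genes kept their direction and their call, but 22 had changes smaller by over 1.5 times, among them FCGR2B at 0.80.

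Among other Fc receptors and antibody-binding proteins, 11 of 12 measured genes rose and 0 fell (median 1.97). Beside FCGR2B and FCGR2C, FCAR, the IgA receptor that pairs with FCER1G, rose by 2.88 ± 0.25, and FCRLA, an intracellular Fc receptor-like protein, by 2.38 ± 0.32. FCRLA was at 0.16 to 1.26 CPM in controls and 3.35 to 6.61 CPM in guide libraries, so its level stayed low. TRIM21, the cytosolic antibody receptor, did not pass (0.44 ± 0.21, adjusted p = 0.10).

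Of the receptors that pair with TYROBP or FCER1G or carry an ITAM-like tail, 17 of 19 rose and 0 fell (median 2.17). LILRA5 had the largest change, from 0.16 to 0.70 CPM in controls to 16.5 to 36.4 CPM in guide libraries (4.75 ± 0.24). CLEC7A, the beta-glucan receptor Dectin-1, went from 0.12 to 0.19 CPM in controls to 11.3 to 19.7 CPM (4.53 ± 0.24). CD300E rose by 4.20 ± 0.24 and LILRA6 by 4.03 ± 0.28, from at most 0.25 and 0.61 CPM in controls. Reads of the LILR genes may be split between near-identical family members. TREML2 (0.59 ± 0.23, adjusted p = 0.057) and PILRB (-0.38 ± 0.23, adjusted p = 0.20) did not pass. TREML2 was at -0.05 with guide 3 and at 1.22 with guide 5, where it passed (limma adjusted p = 0.0082). After the correction for GC content and length PILRB was called lower, at -0.98 (adjusted p = 0.0026), so that 17 genes of this list were higher and 1 lower, and it was also called lower after quantile normalization.

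The remaining ITAM and related chains were nearly all outside the table, with 2 of 8 measured. CD3D, a T cell receptor chain, fell by 1.09 ± 0.21 (adjusted p = 0.0016), from 13.6 to 18.5 CPM in controls to 5.70 to 7.98 CPM in guide libraries. HCST, or DAP10, which signals through phosphoinositide 3-kinase and lies next to TYROBP in the genome, was at 0.67 ± 0.26 (adjusted p = 0.053). It was at 1.11 with guide 3 (limma adjusted p = 0.013) and at 0.22 with guide 5 (adjusted p = 0.63). After the correction for GC content and length, HCST was at 0.08 for both guides.

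Of the genes that act with or after SYK, 17 of 41 were higher (41.5%), 8 were lower (19.5%, near the 20.6% of all genes) and 16 did not pass (median 0.23). For guide 3 alone 15 were higher and 6 lower, and for guide 5 alone 10 and 2. The counts for both guides depend on the processing and on which libraries enter. With the correction for GC content and length 13 were higher and 9 lower. With that correction and the replicate number as a block, 10 were higher and 6 lower. With 1 control left out they ranged from 11 to 23 higher and from 5 to 10 lower. Both counts fell when any 1 of the 4 guide libraries was left out, and so did those over all genes. Such a fit leaves that guide with 1 library, so it cannot show whether a single library carries the counts. The Src family kinase FGR rose by 3.36 ± 0.19, from 11.1 to 17.6 CPM in controls to 104 to 220 CPM in guide libraries, and SRC by 2.83 ± 0.24. RASGRP4, a Ras exchange factor of myeloid cells, rose by 2.32 ± 0.21, and CARD9, the adaptor that links SYK to NF-kappa-B, by 1.68 ± 0.29 (0.89 after the correction for GC content and length). VAV3 fell by 0.96 ± 0.20 (adjusted p = 0.0032). Falls of 0.71 ± 0.21 in NFATC2, a calcium-regulated transcription factor, 0.65 ± 0.17 in PLCG1, a phospholipase, and 0.63 ± 0.20 in the kinase TEC passed as well. The NFATC2 call was lost without guide 3 replicate 2 or guide 5 replicate 2, the PLCG1 call without guide 3 replicate 1, and the TEC call without any 1 of the 4 guide libraries (largest adjusted p 0.075, 0.052 and 0.092). Without control replicate 2 the changes of NFATC2 and TEC were -0.46 and -0.42, and with the correction those of PLCG1 and TEC were -1.13 and -0.38.

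Inhibitory ITIM receptors and the phosphatases and adaptors that they use gave 22 of 28 higher and 0 lower (median 1.03). LILRB3 rose by 4.73 ± 0.20, from 0.86 to 1.26 CPM in controls to 28.1 to 60.6 CPM in guide libraries. PILRA, the inhibitory counterpart of PILRB, rose by 3.74 ± 0.21, and SIGLEC9, a sialic acid receptor, by 2.94 ± 0.20. Genes of activating and of inhibitory receptors thus both rose in these libraries. Among the 6 that did not pass were PTPN11, the phosphatase SHP2 (-0.36 ± 0.18), and INPP5D, the lipid phosphatase SHIP1 (0.11 ± 0.17). After the correction for GC content and length INPP5D was called lower, at -0.33 (adjusted p = 0.013), and the list had 20 genes higher and 1 lower. PTPN11 was called lower when libraries were scaled to the same sum of CPM.

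Co-stimulatory and co-inhibitory genes of antigen-presenting cells, the company of CD86, gave 8 of 12 higher and 1 lower (median 1.53). CD276, or B7-H3, rose by 2.65 ± 0.24 from a control level of at most 0.23 CPM, and CD40 by 2.39 ± 0.25 from at most 0.86 CPM. The inhibitory ligand VISTA, listed under the symbol C10orf54, rose by 2.46 ± 0.19, from 63.1 to 100.9 CPM in controls to 313 to 508 CPM in guide libraries, and TNFRSF14 by 2.35 ± 0.23. TNFSF4, the OX40 ligand, fell by 1.04 ± 0.23 (adjusted p = 0.0039), or by 0.62 after the correction for GC content and length and by 1.76 after quantile normalization. CD80, the other ligand of CD28, was not analysed here.

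**Figure D4:**
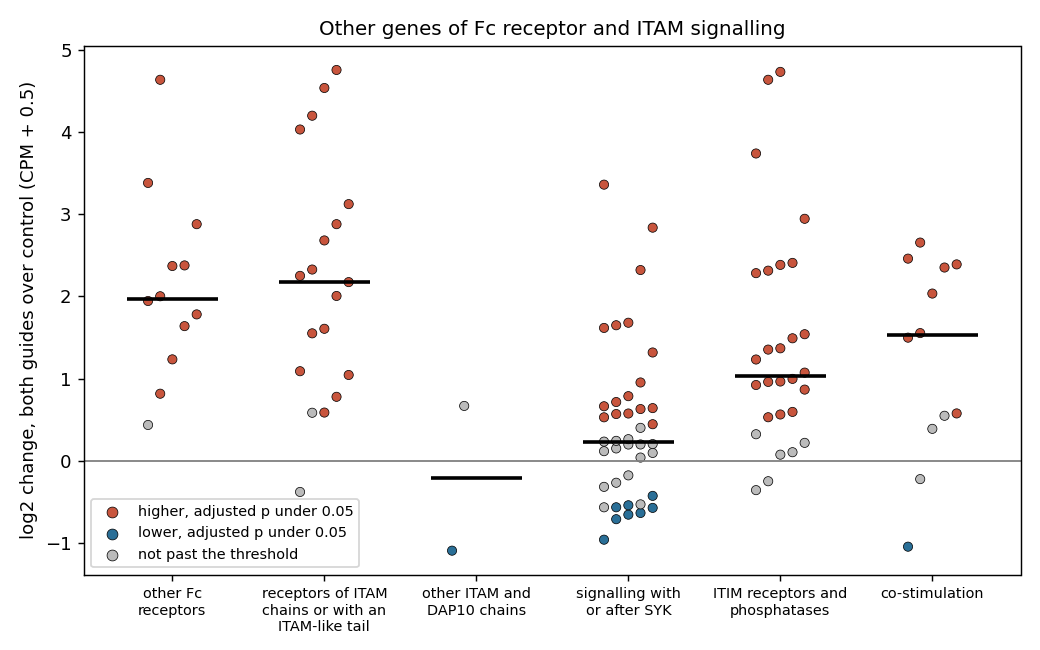
Log2 change of both guides over control (vertical axis, CPM + 0.5) for the 112 measured pathway genes by list; points are genes, colour shows the call and black lines are list medians, which run from -0.21 over 2 genes to 2.17. Most points of the receptor lists lie above 0, and 8 of the 41 genes acting with or after SYK are called lower, a share near that of all genes.

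The genes whose pattern across libraries was most like the mean standardized profile of the 8 genes were ANKRD22, PECAM1, THBS1, SH3BP5 and NEK8, with Pearson r from 0.994 to 0.997 over 7 libraries. Likeness was computed for 11375 genes outside the group with a mean of at least 1 CPM, and 406 had r above 0.95. The libraries are few and fall into the study's groups, so many genes reach such values, and no p is given. PECAM1, an ITIM-bearing adhesion receptor, averaged 250 ± 89.0 CPM in controls (SD, n = 3), 804 CPM with guide 3 and 571 CPM with guide 5. ANKRD22 averaged 11.3 ± 3.91 CPM in controls (SD, n = 3), 31.4 CPM with guide 3 and 23.6 CPM with guide 5. Both showed the order of the groups seen in FCGR1A, FCER1G and TYROBP, which follows from how they were picked and is no separate support. THBS1 averaged 0.37 CPM in controls, 5.46 CPM with guide 3 and 2.30 CPM with guide 5, so it reached the mean of 1 CPM only through the guide libraries.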

How the data were processed

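Poly(A)-selected RNA was sequenced from 7 libraries with a directional kit and single-end reads, per the labels' protocols. The builds GRCh38.p7 and hg38 and the tools STAR 2.5.3, limma, HTSeq and edgeR are named, without roles, per the submitters' processing notes. Whether counting used strand is not given in the sources used here. The authors deposited FPKM per library, reads scaled by library size and gene length, and a table with log2 fold changes, false discovery rates (adjusted p-values) and group means of CPM, on an adjusted library size.

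Dividing the authors' group mean CPM by the deposited group mean FPKM gave each gene's length in bases, which is that of the whole gene with introns, so FPKM is small for long genes such as SYK. FPKM times length gave CPM, and 100% of values were whole numbers of reads within 0.01. Of 11581 genes, 173 had no FPKM and were left out. All 11408 others were tested, with no filter of low values beyond the authors' own, so 8 of 8 members entered. A gene near 0 in controls, such as FCGR3A, may be listed only through its guide libraries, which would raise counts of higher genes. This was not tested. The values log2(CPM + 0.5) went into limma 3.58.1 (R 4.3.3) with 3 group means and a variance trend (4 residual degrees of freedom, 8.78 prior), two-sided, with Benjamini-Hochberg adjustment over all genes and a threshold of 0.05. With 0.5 CPM added, changes of low genes are understated. Changes are estimates ± SE. The procedure was tested on simulated data. Python 3.11.15, pandas 2.3.3, numpy 2.4.6 and matplotlib 3.10.9 served for tables and figures. Identical library pairs numbered 0.

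The deposited columns name the guides 3 and 5 and the labels number them otherwise. Nothing pairs them, and no statement depends on it. Named genes are the 8 members, ZFP36L2, up to 4 of the highest and 4 of the lowest called genes of each pathway list, and the 5 genes most like the members in pattern. The paralogs, genes that missed the threshold and markers are named in addition, for context. The members and lists were chosen with earlier results of these data known. FYB1, FCMR and VSIR were matched by identifier to older symbols. Alternatives were pseudocounts of 0.1 and 1 CPM, a mean of at least 1 CPM, the deposited FPKM, 3 other scalings, voom on recovered reads, no variance trend, GC content and length correction, the replicate number as a block, and each library left out.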

Additional observations from a re-analysis of the deposited data

How the results depend on the processing

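For both guides over control, FCGR1A, FCER1G, TYROBP, TREM1 and CD86 kept their direction and stayed past the threshold in 20 of 20 alternatives, and FCGR3A in 19 of 19, being absent from the filtered FPKM set. FCGR2A passed in 3 of 20: with median of ratios scaling (0.85), with the replicate block (0.58) and without control replicate 2 (1.35). SYK passed in 0 of 20, and its estimate was above 0 with quantile normalization (0.039), the same sum of CPM (0.00062), median of ratios (0.058) and some left-out libraries (-0.072 to 0.075). FCGR2A for guide 5 minus guide 3 was above 0 with quantile normalization (0.016), the same sum of CPM (0.056), median of ratios (0.0070) and GC and length correction, with or without the block (0.065), and when guide 3 replicate 1 (0.13) or guide 5 replicate 1 (0.17) was left out (range with 1 library left out -0.21 to 0.17). CD86 for that difference was above 0 (0.073) without guide 3 replicate 1 (range -0.34 to 0.073). With 0.5 FPKM added and no filter, FCGR1A did not pass for guide 5 (0.57). The cause of these changes was not tested.

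Same-numbered libraries did not deviate together as a rule (correlations of -0.49 to 0.37), so the replicate numbers gave no sign of pairing. Some libraries with other numbers did. Control replicate 3 correlated at 0.54 with guide 3 replicate 2 and at 0.59 with guide 5 replicate 1. With the other library of each guide it was at -0.54 and -0.59, since deviations in a group of 2 mirror each other. Whether libraries share a batch under other numbers was not tested. The replicate block gave 7 members higher for both guides, FCGR2A being added, and ended the guide 5 call of FCGR1A (0.66, adjusted p = 0.096). With it, 1540 genes were lower for guide 5, and 95 were higher and 56 lower for guide 5 minus guide 3. With the block and the GC and length correction together, TNFSF4 did not pass (-0.60), and 1558 genes were higher for guide 3 and 1492 lower for guide 5.

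Counts over all genes moved more than those of members, which cover only 8 genes, so this contrast does not show that the members are more stable. In the filtered FPKM set, with fewer genes tested, 1526 genes were higher and 1339 lower for both guides (2380 and 2347 with CPM and no filter), 1593 and 1166 for guide 3, 841 and 503 for guide 5, 19 were lower for guide 5 minus guide 3, and 3 pathway genes were lower. With quantile normalization 3245 genes were lower for guide 3, 1836 lower for guide 5, and 113 higher and 39 lower between guides. The same sum of CPM gave 1368 lower for guide 5 and 75 higher between guides. GC and length correction gave 2418 lower for guide 5 and 125 higher and 50 lower between guides. Genes lower between guides numbered 4 with 0.1 CPM added, 12 with 1 CPM, 48 with unfiltered FPKM, 15 with no variance trend and 13 with voom. With 1 library left out, genes lower for both guides ranged from 1111 to 2951, higher for guide 3 from 1127 to 3178, lower for guide 3 from 400 to 2823, higher for guide 5 from 638 to 2238 and lower for guide 5 from 58 to 1605. Between guides, the range was 11 to 233 higher, 1 to 204 lower and 0 to 2 members lower. Pathway genes lower ranged from 4 to 12. Depth limits FCGR3A in controls, where 8 reads were counted in all.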

Other observations

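Of the 10 myeloid leukemia markers, 4 were higher, 3 were lower and 3 did not pass for both guides over control, where 20.9% of all genes were higher and 20.6% lower. SPI1, which encodes PU.1, the factor whose core letters were searched in the promoters, was at 128 to 198 CPM in controls, 432 and 515 CPM with guide 3 and 317 and 254 CPM with guide 5. SPI1 rose by 1.16 ± 0.19 log2 units (limma adjusted p = 0.00052), and all guide libraries were above all controls. CEBPA, a transcription factor of granulocytic and monocytic maturation, rose by 1.04 ± 0.23 (adjusted p = 0.0034), and ANPEP, the surface peptidase CD13, by 1.66 ± 0.30 (adjusted p = 0.0011). CD68, a lysosomal protein of phagocytes, rose by 1.08 ± 0.35 (adjusted p = 0.028). FLT3, a cytokine receptor kinase, fell by 0.80 ± 0.17 (adjusted p = 0.0033), from 528, 620 and 440 CPM in controls to 252 and 242 CPM with guide 3 and 344 and 394 CPM with guide 5, with no overlap. The primary granule enzyme MPO fell by 0.80 ± 0.19 (adjusted p = 0.0052), and the leukemia-associated homeobox gene MEIS1 fell by 0.93 ± 0.22 (adjusted p = 0.0049). HOXA9 at -0.21 ± 0.18 (adjusted p = 0.35), FUT4 at -0.20 ± 0.15 (adjusted p = 0.29) and CD33 at 0.22 ± 0.23 (adjusted p = 0.45) did not pass.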
